A study of Triticum aestivum with 4 samples.

Results

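PCS1 and DMAS1 are the wheat genes for the last enzymes of 2 routes that make metal-binding molecules, and they were followed in flag leaves after a short heat treatment. PCS1 (LOC542834) encodes phytochelatin synthase and DMAS1 (LOC100037594) encodes deoxymugineic acid synthase. Their probe sets are all those that the platform annotation gives to a gene whose symbol or gene table synonym is PCS1 or DMAS1. This gave 4 probe sets, 1 for PCS1 and 3 for DMAS1, for 2 of the 771 genes in the annotation. All 4 were bright enough to be tested.

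The study asked how flag leaf transcripts of the wheat cultivar TAM 107 respond to heat. The heat group holds 2 arrays, from plants moved into a growth chamber and sampled after 1 h at 40 °C, and the control group holds 2 arrays from unstressed plants. Plants of both groups had been transferred from the field into pots before flowering and were sampled 10 days after pollination. Whether control plants also went into a chamber is not stated, so moving the plants and heating them cannot be told apart. Nor is it stated whether the replicates are different plants, and the p-values therefore reflect only array-to-array spread, which may be technical.

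Phytochelatin synthase joins units of glutathione into short cysteine-rich peptides that bind cadmium, arsenic and other metals, and the complexes are moved into the vacuole. The enzyme is switched on mainly by the metal ions themselves. Deoxymugineic acid synthase is an aldo-keto reductase of grasses. It completes the route from methionine through nicotianamine to deoxymugineic acid, the phytosiderophore that grass roots release to dissolve iron and that also carries iron inside the plant.

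The PCS1 transcript was lower in heated leaves on its 1 probe set. PCS1 had no other probe set with which this could be compared. Probe set Ta.232.1.S1_at had a signal of 381 and 396 on the heat arrays, against 791 and 729 on the control arrays. Both heat values were close together, and the groups did not overlap, which held for 69.1% of all tested probe sets. The lower control array stood 1.84-fold above the higher heat array. The mean signal was 388 ± 10.9 in heat and 760 ± 43.9 in control (SD, n = 2 each). PCS1 thus fell by 0.97 ± 0.13 (SE) on the log2 scale, heat minus control, with a 95% interval of -1.26 to -0.68 (limma, adjusted p = 0.000723). In folds, heated leaves were 1.96-fold lower, with an interval of 1.60-fold to 2.40-fold (control over heat). Arrays of whole leaves cannot tell fewer cells with the transcript from less transcript per cell.

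Many other probe sets changed in the same test: 37.0% of the 30590 tested probe sets passed the threshold, an adjusted p below 0.05, with 22.9% lower and 14.2% higher in heat, so a call by itself does not set PCS1 apart. The balance of directions depends on the scaling, with 5033 higher and 4958 lower after median centring, against 4339 and 6993 as deposited. A value as low as that of PCS1, or lower, was seen in 9.09% of all tested probe sets. The median log2 fold change of all tested probe sets was -0.15, and that of the 6118 probe sets of like brightness (signals of 247 to 576) was -0.19. PCS1 lay below both. Its call was lost with unmoderated t statistics, at the same fold change (adjusted p = 0.0515; the range over 14 alternatives was 0.000541 to 0.0515).

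**Figure D1:**
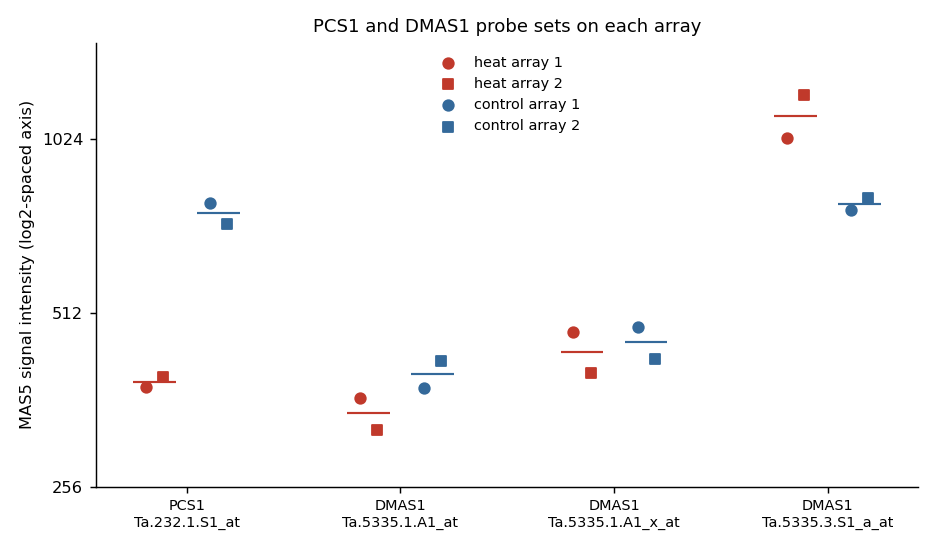
MAS5 signal intensity (log2-spaced axis) of the 4 probe sets of PCS1 and DMAS1 on each heat array (red) and control array (blue), with horizontal lines at the group means. The PCS1 heat values of 381 and 396 lie below both control values, the values of Ta.5335.3.S1_a_at on heat arrays (1026 and 1216) lie above both control values, and the groups overlap on Ta.5335.1.A1_x_at.

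For DMAS1 the 3 probe sets did not give one answer. On its brightest one, Ta.5335.3.S1_a_at, the signal was 1026 and 1216 on the heat arrays, against 770 and 808 on the control arrays. The heat arrays stood above both control arrays but differed more from each other than the control arrays did. The mean was 1121 ± 134 in heat and 789 ± 27.0 in control (SD, n = 2 each). On this probe set DMAS1 rose 1.42-fold, at log2 0.50 ± 0.11 SE with a 95% interval of 0.24 to 0.76 (limma, adjusted p = 0.0103). Of the 6118 probe sets of like brightness (signals of 576 to 1652), 53.9% passed the threshold in either direction. Groups that did not overlap were seen in 69.1% of all tested probe sets. Neither the call nor the lack of overlap therefore sets this probe set apart.

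The other DMAS1 probe sets did not pass the test. Ta.5335.1.A1_at had 364 and 321 in heat, against 379 and 422 in control. The groups did not overlap, but the nearest arrays were only 1.04-fold apart, and 69.1% of all tested probe sets had groups that did not overlap. Its log2 fold change was -0.22 ± 0.16 SE, with a 95% interval of -0.61 to 0.16 (limma, adjusted p = 0.326). Ta.5335.1.A1_x_at had 474 and 403 in heat, against 484 and 426 in control. Here the groups overlapped, and the log2 fold change was -0.06 ± 0.16 SE with an interval of -0.42 to 0.31 (limma, adjusted p = 0.811). An interval of this width leaves room for a change of 1.24-fold upwards or 1.34-fold downwards on that probe set. The median of probe sets of their brightness was -0.19, and 47.7% of these were as low as Ta.5335.1.A1_at or lower.

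The probe sets are not equal witnesses. Ta.5335.1.A1_at and Ta.5335.1.A1_x_at were designed on the same database sequence, so they share a target and do not count as 2 independent measurements, while Ta.5335.3.S1_a_at was designed on another one. The endings _x_at and _a_at mark probe sets with probes that can match further transcripts. Wheat is hexaploid, with near-identical gene copies on its subgenomes. The gene table lists DMAS1-A and DMAS1-B as synonyms of this one gene and DMAS1-D as a gene of its own with 0 annotated probe sets, so which copies each probe set reports is unknown here.

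Differences between probe sets within an array do not depend on a constant scaling factor per array, though quantile normalization, which is not constant, moves them (0.65 in place of 0.73, and 0.49 in place of 0.56, for the first 2 changes below). The log2 signal of Ta.5335.3.S1_a_at minus that of Ta.5335.1.A1_at was 1.49 and 1.92 on the heat arrays, against 1.02 and 0.94 on the control arrays. The gap was wider on both heat arrays, by 0.73 on the log2 scale. Against Ta.5335.1.A1_x_at it was 1.12 and 1.59 in heat and 0.67 and 0.92 in control, a widening of 0.56. Groups did not overlap in either case, but 2 against 2 arrays cannot give a two-sided exact permutation p below 0.333, which is the value of both. Between Ta.5335.1.A1_x_at and Ta.5335.1.A1_at the difference was 0.38 and 0.33 in heat and 0.35 and 0.01 in control, with overlap (change 0.17, exact permutation p = 0.667).

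The second heat array had the higher value on Ta.5335.3.S1_a_at and the lower value on both other DMAS1 probe sets. Without it, the change in the gap to Ta.5335.1.A1_at was 0.51 in place of 0.73, and without the first heat array it was 0.94. The change in the gap to Ta.5335.1.A1_x_at, 0.56 over all arrays, was 0.32 without the second heat array and 0.80 without the first, so its size rests on single arrays. The rise on Ta.5335.3.S1_a_at was 0.38 without the second heat array (limma, adjusted p = 0.0393) and 0.62 without the first. Its call was lost without the first control array (log2 0.47, adjusted p = 0.0713), with eBayes without the intensity trend (adjusted p = 0.0701) and with unmoderated t statistics (adjusted p = 0.165), where the fold change stayed as it was. Over the 14 alternatives its adjusted p ranged from 0.00397 to 0.165.

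Disagreement of this kind was common among annotated genes. Of the 181 genes with at least 2 tested probe sets, 79 had at least 1 that passed and at least 1 that did not, and 63 had values of both signs. The span between the lowest and highest log2 fold change of a gene had a median of 0.39, and DMAS1 had 0.73, a span reached or passed by 48 of the 181. Among the 42 genes with exactly 3 tested probe sets the median span was 0.51, and 13 reached that of DMAS1. Pairs of probe sets designed on the same sequence differed by a median of 0.22 (110 pairs), and pairs designed on other sequences by 0.39 (361 pairs). The DMAS1 pairs had 0.17 on the same sequence and 0.56 and 0.73 on others. Many of these pairs come from the same few genes, so the medians are a description only.

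**Figure D2:**
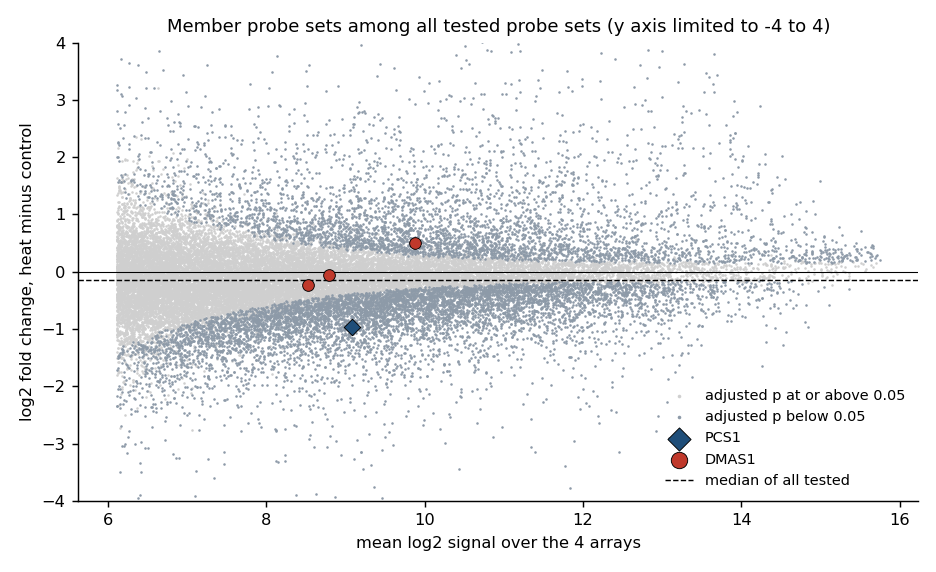
Log2 fold change, heat minus control, against the mean log2 signal for the tested probe sets, with PCS1 (diamond) and the 3 DMAS1 probe sets (circles) marked and the median of all tested probe sets (-0.15) as a dashed line. PCS1 (-0.97) lies among the called falls, Ta.5335.3.S1_a_at (0.50) lies among the called rises, and the other DMAS1 probe sets (-0.22 and -0.06) lie inside the uncalled band.

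The moderated spread behind these tests differed from each probe set's own. For PCS1 the arrays themselves gave a residual SD of 0.07 on the log2 scale, lower than for most probe sets of its brightness (12.0% had a smaller one), and limma used 0.13. For Ta.5335.3.S1_a_at the arrays gave 0.13, larger than in 66.0% of its brightness class (signals of 576 to 1652), and limma used 0.11. limma also added 5.45 prior degrees of freedom to the 2 of the arrays, and on its own spread and degrees of freedom alone neither probe set passed. A value as high as that of Ta.5335.3.S1_a_at, or higher, was seen in 13.8% of the probe sets in its class, whose median was -0.14.

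Other scalings changed no call of the member probe sets, but changed the sign of an uncalled one that lay near 0. Under 4 other scalings (quantile, cyclic loess, median centring, and polyA spike controls), PCS1 stayed between log2 -0.92 and -0.80 and Ta.5335.3.S1_a_at between 0.55 and 0.63, and each passed under all 4. Ta.5335.1.A1_x_at, at -0.06 as deposited, changed sign to 0.10, 0.12 and 0.06 under the first 3 of these and stood at -0.01 with spike scaling, without passing. Ta.5335.1.A1_at stayed below 0 under all 4, between -0.18 and -0.04. No direction can therefore be given for DMAS1 on Ta.5335.1.A1_x_at.

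**Figure D3:**
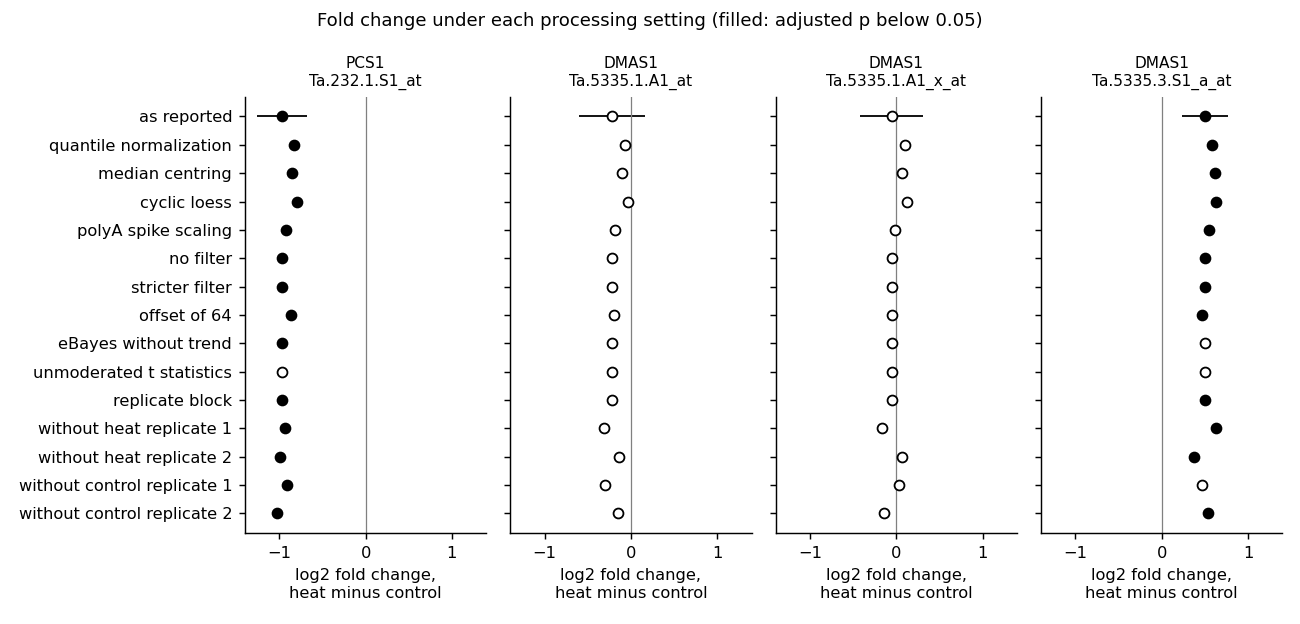
Log2 fold change, heat minus control, of each member probe set as reported (with its 95% interval as a line) and under the 14 alternatives, with filled points where the adjusted p was below 0.05. PCS1 stays between -1.03 and -0.80 and Ta.5335.3.S1_a_at between 0.38 and 0.63, while Ta.5335.1.A1_x_at lies on both sides of 0.

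The other steps of both routes could hardly be followed. Patterns for 5 lists (the phytochelatin and glutathione route, sulphur assimilation and cysteine, phytosiderophores and methionine supply, metal transport and storage, and aldo-keto reductases) matched PCS1, DMAS1 and 1 further gene among the 102 genes with a name. The phytochelatin list held only PCS1, which fell on its 1 probe set. The phytosiderophore list held only DMAS1, which rose on 1 of its 3 tested probe sets. No gene named as a nicotianamine synthase, nicotianamine aminotransferase, metallothionein or ferritin was found. The further gene was ALMT1, an anion channel that releases malate from roots in acid, aluminium-rich soil. Its probe set Ta.30659.1.S1_at was too dim to be tested, with 44.8 and 75.5 in heat, against 27.5 and 116 in control. These values overlapped widely, and without the brightness filter its log2 fold change was 0.04 ± 0.79 SE (limma, adjusted p = 0.983).

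The profile of PCS1 over the 4 arrays was nearest to those of PR5, a thaumatin-like defence protein, Tubb5, a beta-tubulin, and SAHH, which clears adenosylhomocysteine in the methyl cycle. Nearness was the Euclidean distance between log2 signals centred on each gene's own mean, over 69 other genes with a name, and came to 0.17, 0.19 and 0.22. PR5 had a signal of 2314 and 2228 in heat, against 4359 and 4663 in control, at log2 -0.99 ± 0.07 SE. The log2 fold changes of Tubb5 (-1.005) and SAHH (-0.79) lay on either side of that of PCS1. DMAS1 on its brightest probe set was nearest to TaTPC1, a cation channel, LTP3, a lipid transfer protein, and AGP-S, the small subunit of the enzyme that makes ADP-glucose for starch, at 0.20, 0.21 and 0.21. Their log2 fold changes were 0.53, 0.36 and 0.33, each with a smaller SE (0.07, 0.05 and 0.06) than that of DMAS1 (0.11). With 4 arrays in 2 groups, such distances mostly restate the size of the change between groups.

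**Figure D4:**
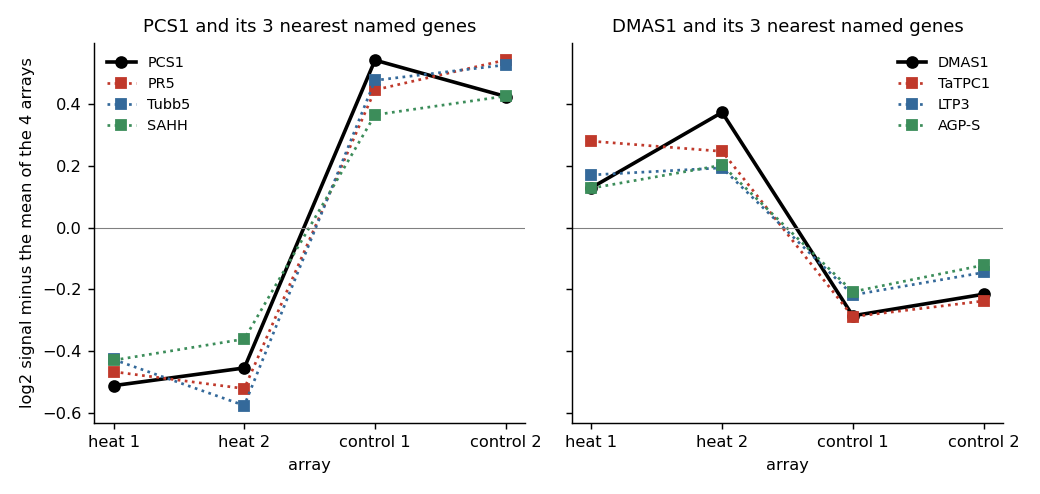
Log2 signal minus the mean of the 4 arrays for PCS1 (left) and DMAS1 on Ta.5335.3.S1_a_at (right), each with its 3 nearest genes with a name; lines only guide the eye between arrays. PCS1 runs with PR5, Tubb5 and SAHH below 0 on both heat arrays, and DMAS1 runs with TaTPC1, LTP3 and AGP-S above 0 on both heat arrays, with its second heat array highest.

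Markers of the tissue were read on the same arrays. Of the leaf genes looked for, 5 had a name here (rbcL, PsbO, PsbP, PRK and FBP), and all 5 were tested and bright, with group means of 8558 to 59910 in heat and 11250 to 44640 in control. On their brightest probe sets 3 were higher and 1 was lower in heat. Of the 6118 tested probe sets of that brightness (signals of 1652 to 55380), 64.9% passed in either direction. The summed signal of the 5 leaf genes was 218600 and 211800 on the heat arrays, against 161400 and 176700 on the control arrays. Of 13 named genes of grain storage and grain defence proteins 4 were bright enough to test and 0 passed (limma; 0 also at an unadjusted p below 0.05). The summed signal of all 13 was 8651 and 8603 in heat, against 8594 and 8682 in control. Their group means ran from 2.36 to 7817 in heat and from 2.62 to 7920 in control, so this sum is mostly the signal of the brightest gene. The part of leaf gene signal in the PCS1 and DMAS1 values was not tested. Replicate arrays correlated at r = 0.977 in heat and r = 0.979 in control across the tested probe sets, which are not independent.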

How the data were processed

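The values the authors deposited are signal intensities on a linear scale, made with MAS5 in Affymetrix Expression Console 1.1 per the submitters' processing notes, which give no settings here. The trimmed mean of each array (2% off each end) was 500.1, so a rise of many transcripts can lower the values of the others. Of 61290 probe sets, 111 AFFX controls were left out. Log2 intensities were not normalized further. A probe set entered the test if its mean log2 signal reached 6.11, the median of all (69.1 on the linear scale), which 30590 did. The test was that of limma 3.58.1 (R 4.3.3; lmFit, eBayes with an intensity trend, 5.45 prior and 2 residual degrees of freedom), two-sided, Benjamini-Hochberg adjustment over all tested probe sets, threshold 0.05. The number of arrays limits the precision. Detection calls were not used here.

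Names came from the platform annotation, an old one, through gene IDs in the RefSeq gene table of IWGSC CS RefSeq v2.1. No build is tied to the array values, so no positions are given, and no promoter or protein sequence was used. Members and lists were chosen with earlier results of these data known. The genes named in the text are all probe sets of PCS1 and DMAS1, list members with a name, and the 3 genes with a name nearest to each in profile. The within-array differences between probe sets used an exact permutation test. The comparison across all annotated genes of how far probe sets of a gene differ was chosen after the data were seen. Alternatives were 4 other scalings, 2 other filters, an offset of 64, 2 other treatments of the spread, the replicate number as a block, and leaving out each array.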

Additional observations from a re-analysis of the deposited data

How the results depend on the processing

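The count of called probe sets was 11332 (4339 higher and 6993 lower in heat). Unmoderated t statistics gave 2593 (1276 higher and 1317 lower), and leaving out each array in turn gave 7628 to 10665, with 3447 to 3882 higher and 4167 to 6783 lower; the lowest counts of lower probe sets were those without control replicate 1 (4167) and control replicate 2 (4181). The share of calls that were higher was 38.3%, and 50.4% with median centring and 48.2% with cyclic loess. PCS1 kept its direction under all 14 alternatives and its call under 13; with unmoderated t statistics it missed the threshold at log2 -0.97. Ta.5335.3.S1_a_at of DMAS1 kept its direction under 14 and its call under 11; it missed the threshold at 0.50 with eBayes without trend and with unmoderated t statistics, and leaving out each array gave 0.38 to 0.62, with no call without control replicate 1. Ta.5335.1.A1_at stayed below 0 and uncalled under 14. Ta.5335.1.A1_x_at was never called and turned to 0.10 (quantile normalization), 0.063 (median centring) and 0.12 (cyclic loess), and leaving out each array gave -0.17 to 0.061, above 0 without heat replicate 2 or control replicate 1 (0.036). The within-array changes between DMAS1 probe sets moved by less than the spread between replicates under quantile normalization and the offset of 64. Leaving out each array gave 0.51 to 0.94 for Ta.5335.3.S1_a_at minus Ta.5335.1.A1_at and 0.32 to 0.80 for Ta.5335.3.S1_a_at minus Ta.5335.1.A1_x_at; with 2 arrays per group such a shift cannot exceed that spread and is no sign of stability. Causes were not tested.

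Replicate numbers are shared between the groups, but nothing says that they pair the plants, and the deviations of same-numbered arrays correlated at 0.0111 across probe sets. With the replicate block 11603 probe sets were called, and no call of a PCS1 or DMAS1 probe set changed (adjusted p of PCS1 0.000833 and of Ta.5335.3.S1_a_at 0.00589, limma). A fit that leaves out an array assumes that the lone array of a group varies like the other group. The number of arrays and the dim ALMT1 signal limit the results.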
